A study of Mus musculus with 26 samples.

Results

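Transcripts of 10 genes of bone morphogenetic protein (BMP) signalling were followed, out of 55291 genes listed in the count tables. The genes were chosen by name and role, with earlier results of these data known. They are the ligand genes Bmp2, Bmp4 and Bmp7, the genes of the secreted antagonists Nog (noggin), Chrd (chordin) and Fst (follistatin), and the target genes Id1, Id2, Id3 and Id4. RNA was sequenced from mouse E14 embryonic stem cells (ESCs) and from neural progenitor cells (NPCs) collected after 2 days of differentiation, in 26 libraries of 2 experiments. By the paper's methods, N2B27 medium held fetal bovine serum. ESCs were kept on gelatin in this medium with leukaemia inhibitory factor, CHIR99021 and PD0325901. NPCs were differentiated on laminin in N2B27 medium, for which these additions are not named. Cell type and culture medium therefore cannot be told apart in comparisons of NPCs with ESCs. The study asked how CTCF, a DNA-binding protein at the base of chromatin loops, depends on its RNA-binding first zinc finger (ZF1) and on bound RNAs.

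In the rescue experiment, the endogenous CTCF of every line carried an mAID-eGFP degron, OsTIR1(F74G) stood at Rosa26, and doxycycline-inducible Flag-Halo CTCF stood at the Tigre locus. The inducible CTCF was wild type (WT) or a ZF1 mutant (labelled CTCF-ZF1, here ΔZF1). ESCs and NPCs of both kinds, 4 groups in all, received 1 µM 5-Ph-IAA together with doxycycline at 1 µg/ml over 24 h. Each group had 2 libraries, each rescue line is 1 clone, and the parent clone also held an mCherry reporter at Hb9. In the truncation experiment, E14 WT cells were compared with homozygous lines in which an eGFP cassette with an SV40 polyadenylation signal (pA) followed the first coding exon of Podxl or Grb10. These lines gave 3 libraries for each line as ESCs and 3 as NPCs, with no degron and without 5-Ph-IAA or doxycycline. A truncation and any other difference between its line and E14 WT cannot be told apart in these comparisons. The paper calls the libraries of a group biological replicates, 2 in the rescue and 3 in the truncation experiment. Nothing in the labels says whether they came from separate cultures. The p-values measure the spread between these libraries, and how much of it is technical is not known.

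BMP ligands are secreted dimers that bind type I and type II receptor kinases, and the receptors phosphorylate Smad1, Smad5 and Smad9, which enter the nucleus with Smad4. The Id genes are immediate targets of these Smads, and Id proteins are helix-loop-helix factors without a DNA-binding region that sequester E proteins and so hold back differentiation factors. In ESCs, BMP with leukaemia inhibitory factor sustains self-renewal through Id genes, and in the early embryo noggin, chordin and follistatin bind ligands in the extracellular space and permit neural induction.

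Smads can bind the letters GGCGCC, the palindrome of the BMP response element known from the Id1 promoter, the variant GGAGCC, and GTCT. RefSeq promoters on GRCm38.p6, from 250 bases before to 50 after the start site, were at hand for Id2, Id3, Id4, Bmp4 and Chrd, and each motif was searched on both strands. GGCGCC was present in Id2, Id4 and Chrd and not in Id3 or Bmp4. These stretches are shown because they let the Id and antagonist promoters be compared at the same letters, with the motif in capitals, read 5′ to 3′ on the strand of the gene. They lie at chr12:25096306-25096335 (minus strand), chr13:48260956-48260985 (plus strand) and chr16:20732912-20732941 (plus strand).
Id2: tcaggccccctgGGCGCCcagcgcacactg
Id4: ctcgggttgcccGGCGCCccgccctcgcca
Chrd: cgggccagagccGGCGCCtagggcactaaa
The motif began at -231 in Id2, -148 in Id4 and -203 in Chrd relative to the start site. These are RefSeq start sites, which differ from the GENCODE M21 gene starts for Id2, Id3 and Id4. The Id2 stretch lies inside its GENCODE gene (chr12:25093799-25097140). Of 32851 promoters of this length, 11.9% held GGCGCC, 30.8% GGAGCC and 88% GTCT. All 5 promoters held GGAGCC, and all but that of Id4 held GTCT. No occurrence in these promoters overlapped one of another motif, and a match is a description of the sequence and not of a bound site.

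Gene counts summed to 6425179 to 28730435 in the rescue libraries and to 1907505 to 8845087 in the truncation libraries, so that low genes were measured less precisely in the latter. Levels are given as CPM, the usual scaling of gene counts by the library total, with totals adjusted by the TMM method, and a count of 0 allows a level of up to 3 counts, which was 0.106 to 0.459 CPM in the rescue libraries and 0.338 to 1.55 CPM in the truncation libraries, for counting error only. A gene passed the cutoffs where edgeR's quasi-likelihood test gave an adjusted p-value no higher than 0.05 and the log2 fold change was 0.5 or more in size. All 10 members passed the filter on low counts among the 16641 genes tested in the rescue experiment, and 6 of 10 passed among the 13268 genes tested in the truncation experiment. Bmp2, Nog, Fst and Id4 were not tested there and had 0 to 10 counts in each library. The NPC-WT libraries differed from each other more than other replicates did (chi-square per degree of freedom 63.1, against 1.69 to 27.6 in the other pairs), and ESC E14 WT replicate 1 and ESC Grb10 pA replicate 2 also stood apart from their groups, with 11.2% and 15.5% of their counts in the 10 most abundant genes.

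Podxl and Grb10 transcripts were low in the lines labelled for their truncation. Podxl lay at 3.01 to 12.9 CPM in Podxl pA ESCs against 26.4 to 34.9 CPM in E14 WT ESCs, and Grb10 lay at 52.2 to 59.4 CPM in Grb10 pA NPCs against 769 to 814 CPM in E14 WT NPCs. Ctcf counts, which take in endogenous and rescue transcripts, lay at 449 to 577 CPM in the WT rescue and 785 to 860 CPM in ΔZF1.

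Markers of the labelled cell types were checked. The 8 pluripotency markers summed to 4657 to 6599 CPM in ESC libraries and 509 to 1548 CPM in NPC libraries, and the 8 neural progenitor markers summed to 25.1 to 60.5 CPM in ESC libraries and 152 to 246 CPM in NPC libraries. Hes5, a defining neural progenitor gene, had 0 counts in NPC-WT and in Grb10 pA NPCs. It also had 0 counts in ESC-WT and in Podxl pA ESCs. Of the neural progenitor markers tested, 5 of 7 were higher and none lower in NPC-WT than in ESC-WT. In Grb10 pA NPCs 5 of 6 were higher and 1 lower than in Grb10 pA ESCs. Markers of other lineages were also summed, and in ESC libraries the 13 extraembryonic endoderm markers summed to 83.9 to 233 CPM. The 13 extraembryonic endoderm markers summed to 390 to 396 CPM in NPC-WT, 3294 to 3441 CPM in NPC-ΔZF1, 725 to 981 CPM in E14 WT NPCs, 1469 to 1589 CPM in Podxl pA NPCs and 603 to 774 CPM in Grb10 pA NPCs. The 8 surface ectoderm markers summed to 2883 and 4200 CPM in the NPC-WT libraries, 1171 to 1229 CPM in NPC-ΔZF1 and 132 to 159 CPM in the NPCs of the truncation experiment. In ESCs the surface ectoderm list summed to 150 to 251 CPM in the rescue and 96.9 to 160 CPM in the truncation experiment. The 8 mesoderm markers summed to 36.5 to 88.7 CPM in NPCs and 19.4 to 45.6 CPM in ESCs. The 5 neuron markers summed to 26.2 to 88.4 CPM in NPCs and 56.0 to 191 CPM in ESCs, and were higher in the ESCs of each line. Sums near or below those of ESCs do not show that a lineage was present in NPCs. In bulk RNA, fewer cells of a type and less RNA per cell cannot be told apart.

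The first comparison was of NPCs with ESCs of the same line. Bmp4 fell and Id1, Id2 and Id3 rose in all 5 lines, and Bmp2, where it could be tested, rose in both rescue lines. In the WT rescue 5 members were higher and 1 was lower, of 10 tested, where 41.9% of all genes passed the cutoffs in either direction. In ΔZF1 4 were higher and 1 was lower (37.3% of all genes). Of 6 members tested, 3 were higher and 2 lower in each of E14 WT, Podxl pA and Grb10 pA, against 32.8%, 31.8% and 34.6% of all genes. Markers of several cell types rose as well. In WT rescue 7 of 7 surface ectoderm, 8 of 12 extraembryonic endoderm and 5 of 7 neural progenitor markers tested were higher, with none lower. In E14 WT 10 of 10 extraembryonic endoderm and 5 of 6 neural progenitor markers were higher, with none lower. There 1 of 5 surface ectoderm markers was higher and 1 lower. Of 8 pluripotency markers, 8 fell in WT rescue and 7 in E14 WT. The part of these markers in the member values was not tested.

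Bmp2, a ligand of early mesoderm and skeletal development, was close to absent in ESCs. It stood at 0.306 and 0.196 CPM in the ESC-WT libraries, which are 2 and 3 counts, and at 7.37 and 7.82 CPM in NPC-WT. It stood at 0.220 and 0.540 CPM in ESC-ΔZF1 and at 5.29 and 6.51 CPM in NPC-ΔZF1. Every NPC library lay far above every ESC library. The log2 fold change was 5.00 ± 0.41 (SE, n = 2 against 2, adjusted p = 8.5e-06) in the WT rescue and 3.91 ± 0.35 (adjusted p = 1.2e-05) in ΔZF1. Since the ESC groups held 5 and 11 counts in all, the ratio of pooled counts is given with its exact 95% binomial interval for counting error, 32.9 (13.9 to 102) in WT and 15.2 (8.39 to 30.8) in ΔZF1. In the truncation experiment Bmp2 had 0 to 2 counts in each ESC library, 4 to 5 in each E14 WT NPC library, 5 to 10 in Podxl pA NPCs and 3, 0 and 0 in Grb10 pA NPCs.

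Bmp4, the ligand best known from ESC self-renewal and mesoderm induction, moved the other way. Its levels were 20.2 and 19.2 CPM in ESC-WT and 4.62 and 5.76 CPM in NPC-WT, with 19.6 and 17.6 CPM in ESC-ΔZF1 and 4.90 and 3.72 CPM in NPC-ΔZF1. In E14 WT it stood at 38.2, 31.5 and 25.2 CPM in ESCs and at 9.71, 10.7 and 14.5 CPM in NPCs. No NPC library reached an ESC library of its line. The log2 fold change was -1.94 ± 0.19 (adjusted p = 3.1e-05) in WT rescue, -2.11 ± 0.19 (adjusted p = 1.2e-05) in ΔZF1 and -1.49 ± 0.17 (adjusted p = 5.3e-08) in E14 WT. It was -1.06 ± 0.17 in Podxl pA and -0.64 ± 0.18 in Grb10 pA.

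Bmp7, a ligand of kidney and neural tissue, was steadier. It stood at 12.1 and 8.09 CPM in ESC-WT and 12.1 and 15.4 CPM in NPC-WT, and the log2 difference of 0.48 ± 0.22 did not pass the test (adjusted p = 0.092). In E14 WT it stood at 14.8, 14.04 and 12.04 CPM in ESCs and 11.3, 9.32 and 7.75 CPM in NPCs, where every NPC library was lower. It fell by 0.55 on the log2 scale in E14 WT (SE 0.18, adjusted p = 0.016), by 0.82 in Podxl pA and by 0.65 in Grb10 pA. The E14 WT call is close to the cutoff. Without E14 WT ESC replicate 1 the value was -0.48 with an adjusted p of 0.076. Without E14 WT NPC replicate 2 it was -0.52 (adjusted p = 0.071), and without replicate 3 it was -0.44 (adjusted p = 0.077).

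Among the antagonists, Nog was higher in NPCs of the WT rescue, at 2.20 and 2.75 CPM against 1.68 and 0.717 CPM in ESCs (log2 fold change 1.20 ± 0.40, adjusted p = 0.032). The ESC libraries held 11 counts each, and without ESC-WT replicate 2 the value was 0.53 (adjusted p = 0.40). In ΔZF1 Nog stood at 1.18 and 1.08 CPM in ESCs and 1.87 and 1.80 CPM in NPCs, a log2 difference of 0.70 ± 0.37 that did not pass the test (adjusted p = 0.15). Chrd passed in none of the 5 lines and Fst in neither rescue line. The intervals of Chrd were -0.71 to 0.93 in WT rescue and -1.07 to 0.29 in E14 WT on the log2 scale, neither of which reaches the size of the Bmp4 change, and that of Fst was -0.49 to 1.05 in WT rescue.

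The Id genes carried the largest rises among the members tested in both experiments. Id2 stood at 8.41 and 4.04 CPM in ESC-WT and 74.3 and 45.0 CPM in NPC-WT, at 4.19 and 5.67 CPM in ESC-ΔZF1 and 104 and 95.8 CPM in NPC-ΔZF1, and at 2.40, 2.74 and 0.777 CPM in E14 WT ESCs and 27.5, 30.6 and 42.5 CPM in E14 WT NPCs. The lowest NPC library was thus above the highest ESC library in each line. The log2 fold change of Id2 was 3.40 ± 0.33 (10.5-fold, adjusted p = 2.4e-05) in WT rescue, 4.33 ± 0.32 (20.2-fold) in ΔZF1, 3.89 ± 0.26 (14.8-fold, adjusted p = 1.8e-12) in E14 WT, 3.37 ± 0.23 in Podxl pA and 4.52 ± 0.25 in Grb10 pA.

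Id1 stood at 17.0 and 11.5 CPM in ESC-WT and 38.7 and 69.95 CPM in NPC-WT, and at 3.92, 5.82 and 8.93 CPM in E14 WT ESCs and 19.7, 30.9 and 33.0 CPM in E14 WT NPCs. Its log2 fold change was 1.96 ± 0.28 (adjusted p = 0.00027) in WT rescue, 2.38 ± 0.27 in ΔZF1, 2.27 ± 0.22 (adjusted p = 2.5e-09) in E14 WT, 2.22 ± 0.20 in Podxl pA and 3.73 ± 0.26 in Grb10 pA. The NPC and ESC libraries did not overlap in any of the lines. Id3 stood at 19.7 and 20.3 CPM in ESC-WT, 74.5 and 136 CPM in NPC-WT, 3.71, 3.42 and 4.27 CPM in E14 WT ESCs and 7.12, 10.4 and 11.1 CPM in E14 WT NPCs. It rose by 2.39 ± 0.24 (adjusted p = 3.5e-05) in WT rescue, 1.77 ± 0.23 in ΔZF1, 1.38 ± 0.26 (adjusted p = 8.2e-05) in E14 WT, 1.55 ± 0.23 in Podxl pA and 3.76 ± 0.38 in Grb10 pA. Id4, the Id gene of neural precursors, did not pass the test in either rescue line, with intervals of -0.03 to 1.78 in WT and -0.69 to 0.84 in ΔZF1.

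**Figure D1:**
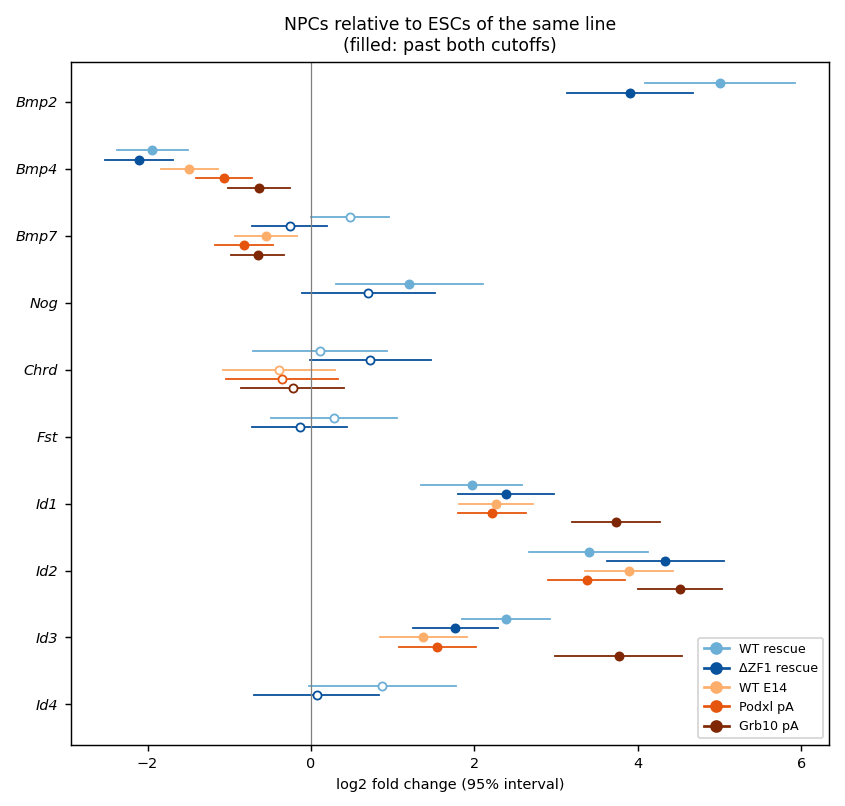
Log2 fold change of NPCs relative to ESCs of the same line for each member (x axis, positive is higher in NPCs), with lines for the 95% interval from edgeR and 1 colour for each of the 5 lines; filled points passed both cutoffs, and Bmp2, Nog, Fst and Id4 have values for the rescue lines alone. Id1, Id2 and Id3 lie right of 0 and Bmp4 left of 0 in every line, and the Grb10 pA points of Id1 and Id3, at 3.73 and 3.76, lie right of those of E14 WT, at 2.27 and 1.38.

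Per length of exon, the order of the members also changed with differentiation. In RPKM, which is CPM divided by the exon length in kilobases, ESC-WT held Id1 at 12.3 ± 3.3 (SD, n = 2), Id3 at 11.2 ± 0.22 and Bmp4 at 8.77 ± 0.29, of which Id1 and Id3 did not differ beyond their spread, followed by Id2 at 2.55 ± 1.3 and Bmp7 at 2.51 ± 0.70. NPC-WT held Id3 at 58.8 ± 24, Id1 at 46.8 ± 19 and Id2 at 24.5 ± 8.5, with Bmp7 at 3.42 ± 0.58, Bmp4 at 2.31 ± 0.36 and Bmp2 at 2.14 ± 0.089. The leading neighbours in that order overlap within their spread between libraries. Within each NPC-WT library the order of Id3, Id1 and Id2 was the same, at 41.6, 33.4 and 30.5 RPKM in replicate 1 and 76.0, 60.3 and 18.5 RPKM in replicate 2. In E14 WT ESCs Bmp4 led at 14.1 ± 2.9 RPKM (n = 3), ahead of Id1 at 5.37 ± 2.2, and in E14 WT NPCs Id1 led at 24.0 ± 6.1, ahead of Id2 at 13.7 ± 3.2, while Id3 at 5.33 ± 1.2 and Bmp4 at 5.17 ± 1.1 were alike within their spread. Nog, Chrd, Fst and Id4 stayed below 1.5 RPKM in each of these 4 groups.

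The second comparison asked what changes when ΔZF1 CTCF takes the place of WT CTCF. Ctcf counts were higher in ΔZF1, by 0.57 ± 0.093 on the log2 scale in ESCs (adjusted p = 0.016) and 0.78 ± 0.093 in NPCs (adjusted p = 0.00067). By Western blot the paper found similar levels of the WT and ΔZF1 rescue proteins. The ZF1 mutation, the Ctcf transcript level and other differences between the clones cannot be told apart here. In ESCs none of the 10 members passed the cutoffs with edgeR, where 3.61% of all genes did, and 1 had an unadjusted p under 0.05. That gene was Fst, whose product binds activins and BMPs. It stood at 1.83 and 1.5 CPM in ESC-WT and at 3.82 and 3.98 CPM in ESC-ΔZF1. Both mutant libraries were above both WT libraries, and the log2 fold change was 1.27 ± 0.33 with an adjusted p of 0.061. It passed with no filter on low counts (adjusted p = 0.011) and in a fit of the ESC libraries alone (adjusted p = 0.0043), and DESeq2 called none of the members. The other members differed by -0.27 to 0.73 on the log2 scale, and for Bmp4 the interval was -0.48 to 0.31 and for Id3 -0.48 to 0.63. The genes of chromosome 11, where Nog lies, had a median of -0.46 in this comparison, and the Nog value was 0.10 as fitted and 0.55 with that median in the offsets (adjusted p = 0.95 and 0.65).

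In NPCs 1 of 10 members passed, against 17.6% of all genes. Bmp7 stood at 12.1 and 15.4 CPM in NPC-WT and at 8.95 and 8.24 CPM in NPC-ΔZF1. Both mutant libraries were below both WT libraries, and Bmp7 fell by 0.66 on the log2 scale (SE 0.20, adjusted p = 0.042, 1.58-fold). In a fit of the NPC libraries alone the adjusted p was 0.090. The call was lost without either NPC-ΔZF1 library (adjusted p = 0.16 and 0.24) and kept without either NPC-WT library, at -0.84 without replicate 1 and -0.51 without replicate 2. A group left with 1 library in such fits is assumed to vary like the others.

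The other 9 members did not pass in NPCs. Fst stood at 2.37 and 1.38 CPM in NPC-WT and at 3.84 and 3.24 CPM in NPC-ΔZF1 (log2 difference 0.84 ± 0.28, adjusted p = 0.055), the same side as in ESCs. Id2 stood at 74.3 and 45.0 CPM in NPC-WT and at 104 and 95.8 CPM in NPC-ΔZF1 (0.73 ± 0.26, adjusted p = 0.070). Bmp2, at 5.29 and 6.51 CPM in NPC-ΔZF1, had a log2 difference of -0.36 ± 0.22 (adjusted p = 0.26), and Nog one of -0.41 ± 0.32 (adjusted p = 0.39). Nog lies on chromosome 11, whose genes had a median log2 difference of -0.57 between NPC-ΔZF1 and NPC-WT, against -0.04 to 0.17 on autosomes other than 8 and 11, and with that median in the offsets the Nog value was 0.16.

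The values of the Id genes rested on which NPC-WT library was read. Id1 stood at 38.7 and 69.95 CPM in NPC-WT and at 69.2 and 74.0 CPM in NPC-ΔZF1, with a log2 difference of 0.41 ± 0.24 (adjusted p = 0.25). Id3 stood at 74.5 and 136 CPM in NPC-WT and at 72.6 and 70.7 CPM in NPC-ΔZF1, with a difference of -0.55 ± 0.22 (adjusted p = 0.10). The mutant libraries lay close together, near replicate 2 of NPC-WT for Id1 and near replicate 1 for Id3. Without NPC-WT replicate 1, Bmp7, Fst, Id2 and Id3 passed, with values of 1.36 for Fst, 1.15 for Id2 and -0.93 for Id3, and without NPC-WT replicate 2, Bmp7 and Id1 passed, with a value of 0.87 for Id1. With no filter on low counts Bmp7, Fst, Id2 and Id3 passed, and with DESeq2 Bmp7 and Id2. Beside these values, 12 of 12 extraembryonic endoderm markers tested were higher in NPC-ΔZF1 than in NPC-WT, 4 of 7 surface ectoderm markers were lower and 1 higher, and of 7 neural progenitor markers 3 were higher and 1 lower. Of 6 mesoderm markers 1 was higher and 2 were lower, 1 of 3 neuron markers was lower, and 1 of 8 pluripotency markers was higher. The surface ectoderm list includes Dlx3 and Krt14, which lie on chromosome 11, whose genes had a median log2 difference of -0.57 here. The part of the markers in the member values was not tested.

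The effect of ΔZF1 differed between NPCs and ESCs past the cutoffs for none of the 10 members with edgeR (2.7% of all genes), and 1 had an unadjusted p under 0.05. That was Bmp7, with a difference of effects of -0.74 ± 0.30 (adjusted p = 0.22). For Id2 it was 0.94 ± 0.46 (adjusted p = 0.31). Without NPC-WT replicate 1 the differences of Bmp7, Id2 and Id3 passed, at -0.96, 1.27 and -0.997, and without NPC-WT replicate 2 that of Id1 did, at 0.81.

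**Figure D2:**
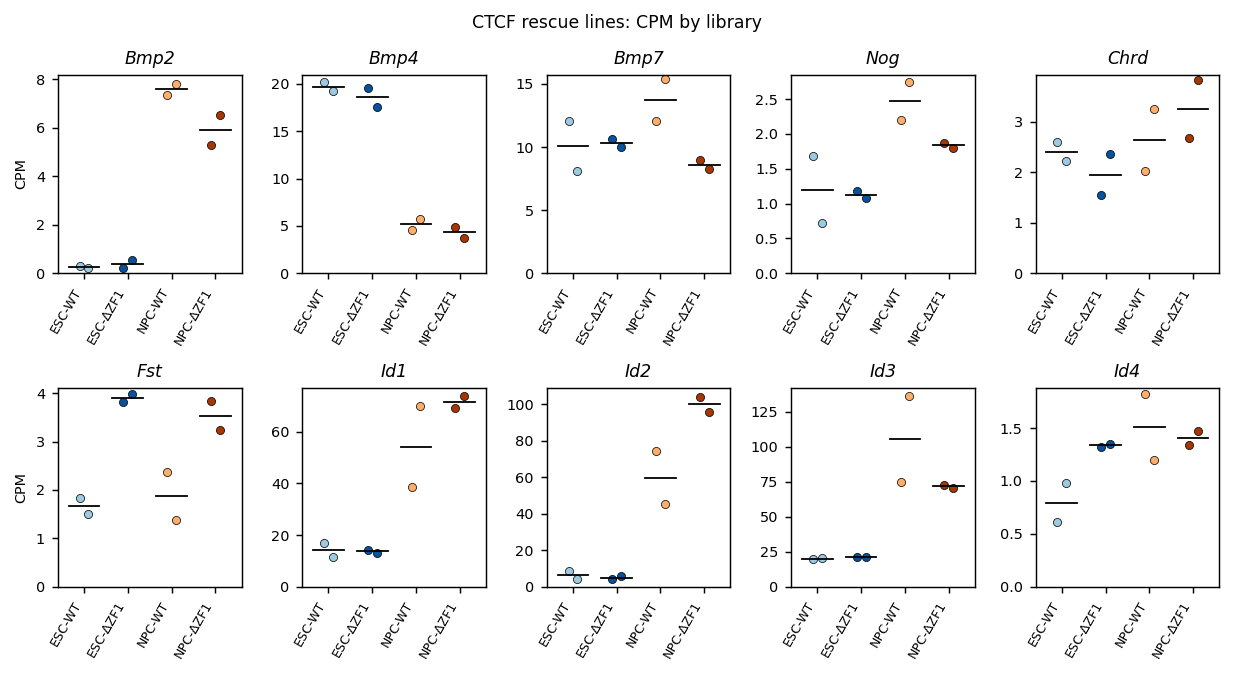
CPM of each member (y axes from 0, 1 scale per gene) in the 8 rescue libraries, with a point for each library and a line at the mean of each group of 2. Bmp2 and Id1 to Id3 are higher and Bmp4 is lower in NPCs of both rescues, the Fst points of ΔZF1 lie above those of WT in both cell types without passing the test, and the NPC-WT points of Id1, Id2 and Id3 lie far apart, at 38.7 and 69.95 CPM for Id1.

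The third comparison was of the Podxl truncation with E14 WT. None of the 6 members tested passed in ESCs with edgeR, where 0.339% of all genes did, and none had an unadjusted p under 0.05. None passed in NPCs (0.55% of all genes), where Id1 and Id3 had an unadjusted p under 0.05. DESeq2 called none in either cell type. Id3 stood at 7.12, 10.4 and 11.1 CPM in E14 WT NPCs and at 11.6, 13.7 and 17.2 CPM in Podxl pA NPCs, so that every Podxl pA library was above every WT library (log2 difference 0.57 ± 0.20, adjusted p = 0.27). Id1 stood at 36.5, 34.1 and 37.8 CPM in Podxl pA NPCs, also above the WT libraries (0.36 ± 0.17, adjusted p = 0.46). In ESCs Id2 stood at 3.01, 3.44 and 6.70 CPM in Podxl pA and at 2.40, 2.74 and 0.777 CPM in E14 WT (0.79 ± 0.39, adjusted p = 0.55), and the highest of these is the shallowest library of the experiment. The interval of Bmp4 was -0.57 to 0.06 in ESCs and -0.21 to 0.56 in NPCs, and that of Bmp7 -0.03 to 0.66 and -0.35 to 0.43. In Podxl pA NPCs 5 of 10 extraembryonic endoderm markers tested were higher and 1 of 6 neural progenitor markers was lower than in E14 WT NPCs, and their part in the Id values was not tested. The effect differed between cell types for none of the 6 members (0.098% of all genes), and none had an unadjusted p under 0.05.

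The fourth comparison was of the Grb10 truncation with E14 WT, and here members changed in ESCs. Bmp4, Id1 and Id3 were lower and Bmp7 was higher, 4 of 6 tested, where 9.09% of all genes passed. Bmp4 stood at 38.2, 31.5 and 25.2 CPM in E14 WT ESCs and at 16.0, 15.2 and 14.7 CPM in Grb10 pA ESCs. The Grb10 pA libraries lay close together and below every WT library, and Bmp4 fell by 1.07 on the log2 scale (SE 0.16, 2.10-fold, adjusted p = 4.1e-05).

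Id3 stood at 3.71, 3.42 and 4.27 CPM in E14 WT ESCs, and at 0.433, 1.38 and 0.237 CPM in Grb10 pA ESCs, which are 2, 4 and 1 counts. The groups lay apart, and the log2 fold change was -2.58 ± 0.46 (5.97-fold, adjusted p = 0.00027). The ratio of the pooled counts, 48 in WT to 7 in Grb10 pA, was 6.19 with an exact 95% binomial interval of 2.79 to 16.2 for counting error. Id1 stood at 3.92, 5.82 and 8.93 CPM in E14 WT ESCs and at 1.51, 2.76 and 2.61 CPM in Grb10 pA ESCs, again with no overlap, and fell by 1.38 on the log2 scale (SE 0.35, 2.61-fold, adjusted p = 0.0077). Id2 was at 2.38, 0.690 and 3.08 CPM in Grb10 pA ESCs, overlapping its WT libraries, with an interval of -0.91 to 0.89.

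Bmp7 stood at 14.8, 14.04 and 12.04 CPM in E14 WT ESCs and at 21.4, 20.02 and 21.1 CPM in Grb10 pA ESCs. Every Grb10 pA library was higher, by 0.59 ± 0.16 on the log2 scale (1.51-fold, adjusted p = 0.014). Bmp4, Bmp7 and Id3 kept their calls when any 1 of the 6 ESC libraries was left out, and Id1 lost it without Grb10 pA replicate 1 (-1.12, adjusted p = 0.052). Without Grb10 pA replicate 2, which stood apart, the values were -1.07 for Bmp4, 0.61 for Bmp7, -1.51 for Id1 and -3.36 for Id3, and without E14 WT replicate 1 they were -0.92, 0.65, -1.62 and -2.58, all past the cutoffs. Genes of chromosome 8 had a median log2 difference of -0.49 in Grb10 pA ESCs, against -0.02 to 0.07 on autosomes other than 8 and 11. The truncation and this difference of the Grb10 pA line cannot be told apart. No member lies on chromosome 8, but Ctcf itself does, and it was lower in Grb10 pA ESCs, at 134 to 157 CPM against 229 to 233 CPM in E14 WT ESCs (log2 fold change -0.64 ± 0.074, adjusted p = 1.0e-06). In Grb10 pA ESCs 2 of 10 extraembryonic endoderm markers tested were higher, 1 of 6 neural progenitor markers and 1 of 3 neuron markers were lower, and 1 marker was higher and 1 lower among both the 8 pluripotency and the 5 surface ectoderm markers tested. The neuron markers summed to 56.0 to 61.1 CPM there, against 146 to 154 CPM in E14 WT ESCs. The neuron marker Tubb3, the neural progenitor marker Sox1 and the pluripotency marker Zfp42 also lie on chromosome 8. The part of Ctcf and of these markers in the member values was not tested.

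In NPCs 1 of 6 members passed, against 16.5% of all genes. Id2 stood at 27.5, 30.6 and 42.5 CPM in E14 WT NPCs and at 49.5, 53.1 and 50.8 CPM in Grb10 pA NPCs. All Grb10 pA libraries were above all WT libraries (log2 fold change 0.62 ± 0.16, 1.54-fold, adjusted p = 0.0043). Bmp7 was at 15.2, 13.7 and 10.6 CPM in Grb10 pA NPCs against 11.3, 9.32 and 7.75 CPM, an overlapping pair of groups, with a log2 difference of 0.49 ± 0.18 (adjusted p = 0.040) that lay just under the cutoff on size and exceeded it, at 0.63 and 0.60, without Grb10 pA replicate 3 or E14 WT replicate 1. Bmp4 at 10.0, 9.22 and 10.1 CPM, Id1 at 28.1, 27.9 and 33.3 CPM and Id3 at 7.88, 8.22 and 9.40 CPM overlapped their WT libraries in NPCs. Their intervals were -0.61 to 0.17, -0.26 to 0.42 and -0.63 to 0.25. Of 6 neural progenitor markers tested, 4 were lower in Grb10 pA NPCs than in E14 WT NPCs and none was higher, and 4 of 8 pluripotency markers were higher and 1 lower. Of the other lists, 2 of 3 mesoderm markers and 1 of 5 surface ectoderm markers were higher, and 3 of 10 extraembryonic endoderm markers and 1 of 3 neuron markers were lower. The markers Tubb3, Sox1 and Zfp42 lie on chromosome 8, whose genes had a median log2 difference of -0.48 in Grb10 pA NPCs. Ctcf was also lower in Grb10 pA NPCs, at 155 to 161 CPM against 211 to 218 CPM (log2 fold change -0.44 ± 0.073, adjusted p = 5.0e-05). The part of Ctcf and of these markers in the member values was not tested.

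The difference of the Grb10 truncation's effect between NPCs and ESCs was itself tested and passed for 3 of 6 members, against 5.9% of all genes. It was 0.85 ± 0.25 for Bmp4 (adjusted p = 0.040), 1.46 ± 0.39 for Id1 (adjusted p = 0.023) and 2.39 ± 0.52 for Id3 (adjusted p = 0.0057) on the log2 scale. In each of these genes the Grb10 pA libraries were low in ESCs and near WT in NPCs. The difference of Id3 passed when any 1 of the 12 libraries was left out, that of Id1 in 9 of 12 such fits and that of Bmp4 in 4 of 12, with adjusted p-values of up to 0.034, 0.079 and 0.12. For Bmp7 the difference was -0.11 ± 0.24 (adjusted p = 0.87), its Grb10 pA values being on the high side in both cell types.

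**Figure D3:**
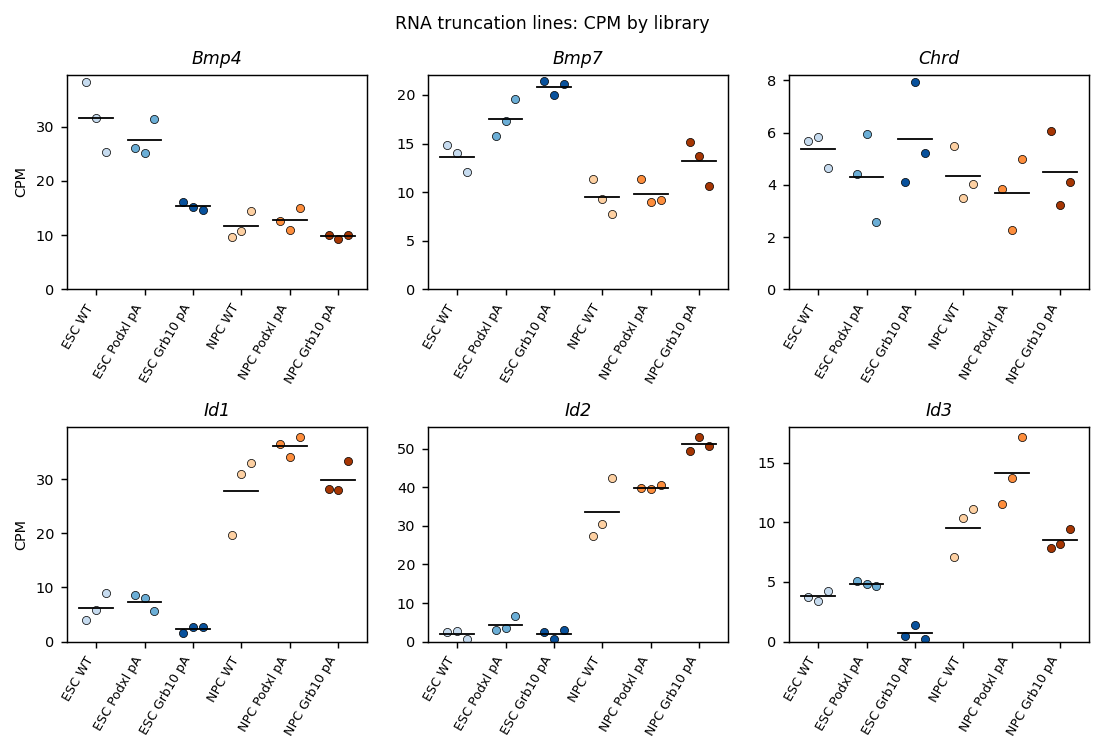
CPM of the 6 members tested in the truncation experiment (y axes from 0, 1 scale per gene) in its 18 libraries, with a point for each library and a line at the mean of each group of 3. Bmp4, Id1 and Id3 are low and Bmp7 is high in the 3 Grb10 pA ESC libraries, as with Bmp4 at 14.7 to 16.0 CPM against 25.2 to 38.2 CPM in WT, and Id2 is high in Grb10 pA NPCs.

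**Figure D4:**
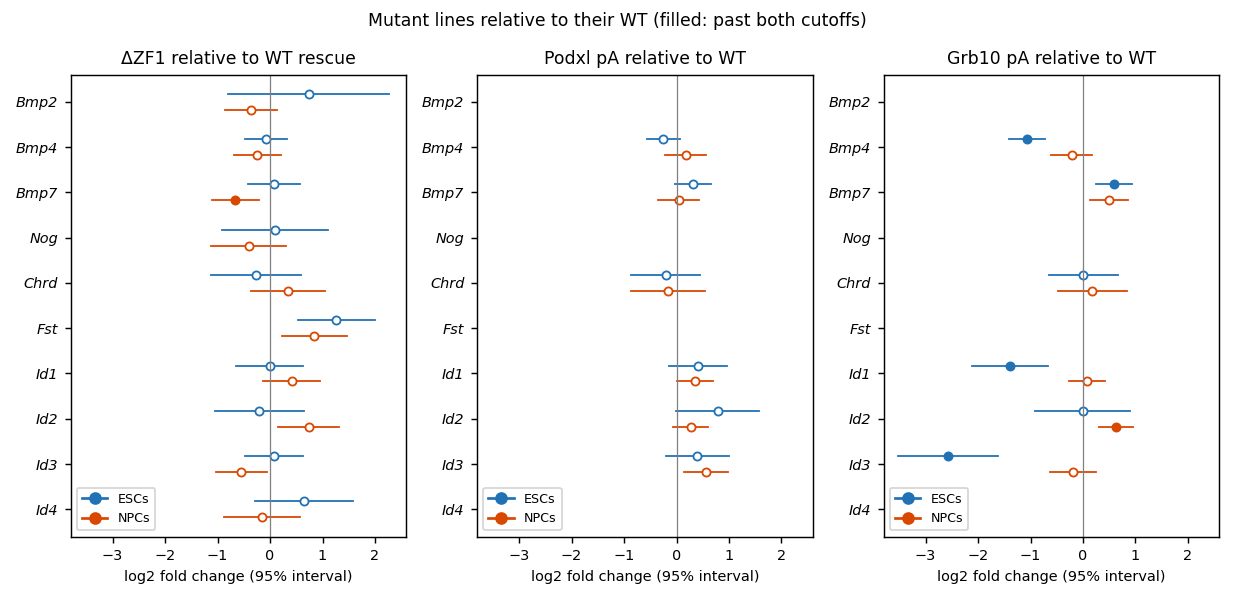
Log2 fold change of each mutant line relative to its WT in ESCs (blue) and NPCs (orange), with lines for the 95% interval from edgeR and filled points past both cutoffs; members without a point were not tested. The filled points are Bmp7 in NPC-ΔZF1, Bmp4, Bmp7, Id1 and Id3 in Grb10 pA ESCs and Id2 in Grb10 pA NPCs, and the Podxl panel has no filled point.

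Another 45 genes of the pathway were listed, of which 34 were tested in the rescue experiment and 26 in the truncation experiment. During differentiation 18 of 34 were higher and 2 lower in WT rescue (41.9% of all genes passed in either direction), and 16 were higher and 2 lower in ΔZF1 (37.3%). Of 26, the numbers higher and lower were 7 and 2 in E14 WT (32.8%), 11 and 2 in Podxl pA (31.8%) and 8 and 4 in Grb10 pA (34.6%). Smad7, the inhibitory Smad, fell in each line, by 1.08 in WT rescue and by 1.44 in E14 WT. The transcription factor gene Gata3, a BMP target of surface ectoderm, rose by 4.40 ± 0.21 in WT rescue and 4.31 ± 0.42 in E14 WT. Dlx5 and Sost had no counts in ESC-WT and 49 and 36 counts in NPC-WT, and Gdf3, a ligand of pluripotent cells, fell by 1.91. In E14 WT the ligand gene Bmp8b (2.88 ± 0.49) and the receptor gene Bmpr1b (2.49 ± 0.63) rose most after Gata3, and Msx2, a BMP target, fell by 1.5, whereas in WT rescue Msx2 rose by 2.94 ± 0.14. The 2 experiments were normalized and fitted separately, and the difference between their Msx2 changes was not tested.

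In ESC-ΔZF1 2 of these 34 genes were higher and 1 lower than in ESC-WT, against 3.61% of all genes. Tll1, a protease gene whose product cleaves chordin, rose by 2.53 ± 0.43 (adjusted p = 0.018), Fstl1, a follistatin-like gene, rose by 0.98 ± 0.10 (adjusted p = 0.0029), and the type I receptor gene Bmpr1b fell by 2.73 (SE 0.55, adjusted p = 0.029). In NPC-ΔZF1 7 were higher and 6 lower than in NPC-WT, against 17.6% of all genes. The largest rises were of the ligand gene Gdf6 (2.72 ± 0.44, adjusted p = 0.0035), of Bmper, a BMP-binding modulator (2.66 ± 0.58, adjusted p = 0.011), and of the ligand gene Bmp6 (2.62 ± 0.25, adjusted p = 0.00018), and the largest falls were of Bmpr1b (by 2.12, adjusted p = 0.0046), Smad9 (by 1.502, adjusted p = 0.024) and Gata2 (by 1.21, adjusted p = 0.00041). The ΔZF1 effect differed between cell types for 4 of the 34 (2.7% of all genes), Bmp6 (2.44 ± 0.37, adjusted p = 0.010), Msx2 (-1.19 ± 0.19, adjusted p = 0.014), Gata2 (-1.13 ± 0.21, adjusted p = 0.021) and Smad7 (-1.03 ± 0.19, adjusted p = 0.022).

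None of the 26 genes tested passed with Podxl pA in either cell type with edgeR (0.339% of all genes in ESCs and 0.55% in NPCs), and 1 in ESCs and 6 in NPCs had an unadjusted p under 0.05. In Grb10 pA ESCs 1 was higher and 1 lower, against 9.09% of all genes. Gata2 rose by 1.28 ± 0.27 (adjusted p = 0.0015), and Smad1, the Smad of BMP receptors, fell by 0.56 (SE 0.12, adjusted p = 0.0024), which is close to the median of its chromosome 8. In Grb10 pA NPCs 1 was higher and 4 lower, against 16.5% of all genes. Bmp8b rose by 0.99 ± 0.28 (adjusted p = 0.0086), and Bmpr1b fell by 1.60 (adjusted p = 0.020), Msx1 by 1.54 (adjusted p = 0.026), Gata2 by 1.21 (adjusted p = 0.0059) and Gdf3 by 0.51 (adjusted p = 0.00092). The effect differed between cell types for 2 of the 26 (5.9% of all genes), Gata2 (-2.49 ± 0.42, adjusted p = 0.00052) and the type II receptor gene Bmpr2 (0.61 ± 0.15, adjusted p = 0.016).

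Among the members, Id1, Id2 and Id3 varied together. Over the 10 group means, each centred on its own experiment, Pearson's r of log2 CPM was 0.966 for Id1 with Id2, 0.947 for Id1 with Id3 and 0.865 for Id2 with Id3, and it was -0.876 for Bmp4 with Id2. These are descriptions over group means that share libraries and are mostly set by the change from ESCs to NPCs. The gene with the pattern most like a member, of 13226 genes tested in both experiments, was Arrdc2 for Bmp4 (r = 0.989), Bdkrb2 for Bmp7 (0.983), Mapk11 for Id1 (0.996), Gm27204 for Id2 (0.994) and Cpne2 for Id3 (0.980).

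On GRCm38 the members lie on 7 chromosomes. Bmp2 (chr2:133552159-133562885), Id1 (chr2:152736251-152737410) and Bmp7 (chr2:172868012-172940321) share chromosome 2, and Fst (chr13:114452290-114458951) and Id4 (chr13:48261228-48266026) share chromosome 13. Bmp4 lies at chr14:46383520-46390669, Id2 at chr12:25093799-25097140, Id3 at chr4:136143497-136145755, Chrd at chr16:20733127-20742384 and Nog at chr11:89300638-89302332. All are protein-coding. The counting did not use strand, and in GENCODE M21 exons of Bmp4 overlap Gm15217, those of Chrd overlap Thpo, those of Fst overlap Gm47040 and those of Id4 overlap A330033J07Rik and Gm49291, each on the opposite strand, so that reads there cannot be told apart. Bmp2, Bmp7, Nog, Id1, Id2 and Id3 have no such overlap.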

How the data were processed

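Gene counts of 8 rescue and 18 truncation libraries were analysed. The authors aligned reads to mm10 with STAR, counted them on genes with featureCounts, without strand, and deposited raw counts. The annotation and tool versions are not given in the sources used here, and 3 columns that match no sample were left out. Each table was fitted on its own, over all its libraries, with edgeR 4.0.16 in R 4.3.3 (TMM, filterByExpr, a mean for each group), and tested with the quasi-likelihood F test and Benjamini-Hochberg adjustment over all genes. The authors used DESeq2 with these cutoffs, and DESeq2 1.42.0 was run as an alternative. Standard errors are the fold change divided by the square root of F. RPKM used GENCODE M21 exon lengths. The fits were tested on simulated data. The members, lists and tests were chosen with earlier results of these data known. The text names all members and, in each comparison, up to 3 rises and 3 falls of other pathway genes. Msx2 in the WT rescue and Gdf3 in Grb10 pA NPCs fall outside that rule and were named after their values were seen. The gene most like Chrd is not reported here. The alternatives were RLE normalization, other filters, a stricter cutoff, a replicate block, fits of the compared groups alone, chromosome medians in the offsets, DESeq2 and leaving out each library.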

Additional observations from a re-analysis of the deposited data

Results flagged for a closer look

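For 3 members the effect of the Grb10 truncation differed between NPCs and ESCs by a test of the difference itself (an interaction term in edgeR's quasi-likelihood fit, adjusted over all genes). The difference of log2 fold changes was 2.39 ± 0.52 for Id3 (SE, adjusted p = 0.0057), 1.46 ± 0.39 for Id1 (adjusted p = 0.023) and 0.85 ± 0.25 for Bmp4 (adjusted p = 0.040). In ESCs the 3 Grb10 pA libraries lay below the 3 E14 WT libraries for each of these genes, and in NPCs the groups overlapped. Id3 rested on 7 counts in all in Grb10 pA ESCs. The truncation cannot be told apart from other differences of the Grb10 pA line, such as the lower median of its chromosome 8 genes.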

How the results depend on the processing

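Of 14 counts of members past the cutoffs, several moved with a setting. With no filter on low counts, 1 member (Fst) passed in ESC-ΔZF1, 4 (Bmp7, Fst, Id2, Id3) in NPC-ΔZF1, 1 (Id2) for the difference between the ΔZF1 effects and 2 (Bmp2, Id2) in Grb10 pA NPCs. With at least 10 counts in every library, 2 (Bmp7, Fst) passed in NPC-ΔZF1, 2 in Grb10 pA ESCs, 0 in Grb10 pA NPCs, 2 in each differentiation of the truncation experiment and 1 (Bmp4) for the difference between the Grb10 pA effects, where the filter left Id1, Id2 and Id3 untested. At an adjusted p of at most 0.01, 0 passed in NPC-ΔZF1 and 1 (Id3) for the difference between the Grb10 pA effects. Fitting only the groups compared gave 1 (Fst) in ESC-ΔZF1 and 0 in NPC-ΔZF1, and DESeq2 gave 2 (Bmp7, Id2) in NPC-ΔZF1. Where no cause is given, the cause was not tested.

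Some values near 0 changed sign. Id1 in ESC-ΔZF1 was 0.011 with RLE normalization, 0.0089 with no filter, 0.0080 with at least 10 counts and 0.015 in the groups compared. Nog in NPC-ΔZF1 was 0.16 with the chromosome 11 median in the offsets. Chrd in Grb10 pA ESCs was -0.013 with no filter and -0.0030 in the groups compared.

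Leaving out 1 library at a time, 0 to 4 members passed in NPC-ΔZF1, 0 to 3 for the difference between the ΔZF1 effects, 1 to 2 in Grb10 pA NPCs and 1 to 3 for that between the Grb10 pA effects. Values that changed sign ranged, in ESC-ΔZF1, from -0.026 to 1.21 (Bmp2), -0.16 to 0.029 (Bmp4), -0.21 to 0.37 (Bmp7), -0.58 to 0.0063 (Chrd), -0.29 to 0.27 (Id1), -0.75 to 0.30 (Id2) and -0.56 to 0.66 (Nog). In NPC-ΔZF1 they ranged from -0.012 to 0.66 (Chrd) and -0.39 to 0.22 (Id4), and for the difference between the ΔZF1 effects from -0.012 to 0.81 (Id1). In differentiation they ranged from -0.20 to 0.48 (Chrd) and -0.22 to 0.57 (Fst) in WT rescue and from -0.55 to 0.039 (Chrd) in Grb10 pA. They ranged from -0.055 to 0.15 (Bmp7) and -0.50 to 0.11 (Chrd) in Podxl pA NPCs, -0.25 to 0.21 (Chrd) and -0.36 to 0.29 (Id2) in Grb10 pA ESCs, and -0.16 to 0.35 (Chrd) and -0.092 to 0.18 (Id1) in Grb10 pA NPCs.

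Deviations of same-numbered libraries correlated between -0.12 and 0.099, and not every library correlated best with its own number. Between Grb10 pA and E14 WT NPCs each library did. With 2 libraries in a group the deviations mirror each other, so in the rescue experiment the check gives a sign alone. Whether the numbers mark a pairing is not settled by these values. With the replicate block the counts were 0 in ESC-ΔZF1 and 1 in NPC-ΔZF1, where Id2 passed (adjusted p = 0.049) in place of Bmp7 (adjusted p = 0.058), and the replicate block left the other 12 counts as they were. Bmp2, Nog, Fst and Id4 did not pass the filter on low counts in the truncation experiment and were not tested there.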
